A study of Homo sapiens with 6 samples.

Results

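The 10 immediate early genes, FOS, FOSB, JUN, JUNB, JUND, EGR1, IER2, IER3, DUSP1 and ATF3, were followed by name through a table of 15059 genes, which held all 10 of them. Immediate early genes are switched on within minutes of a growth signal or stress by transcription factors that are already present, and need no new protein synthesis for this. Their messages are mostly short-lived. FOS and JUN proteins pair through leucine zippers into AP-1, which in myeloid cells takes part in monocyte maturation and inflammatory transcription. The cells were NOMO-1, an established human line of monocytic acute myeloid leukaemia, and RNA sequencing covered 3 groups of 2 libraries. METTL16 rescue cells (sgMETTL16+OE-METTL16) were made to overexpress METTL16 and then received a guide against the endogenous gene. METTL16 knockout cells (sgMETTL16+EV) received the same guide after an empty vector. Control cells (sgNS+EV) received the control guide sgNS after the empty vector. METTL16 is an RNA methyltransferase that places N6-methyladenosine on U6 small nuclear RNA and on the MAT2A message. Per the labels' protocols, cells of every group were transduced with lentivirus and grown in serum, penicillin-streptomycin, Plasmocin and 2 µg/ml puromycin, and no stimulus is recorded. Whole-cell total RNA depleted of ribosomal RNA was sequenced. Whether the lines were pools or clones, and whether replicates were separate cultures, is not given in the sources used here. The p-values therefore measure only the spread between these libraries.

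Levels are given as the signal, an RSEM abundance scaled for transcript length. METTL16 was measured first, as the check of the groups, and had a signal of 12.3 and 12.1 in rescue, 6.05 and 5.83 in knockout, and 9.89 and 9.63 in control libraries. It fell by 0.63 on the log2(signal + 1) scale in knockout against control (limma, adjusted p = 4.76e-05) and rose by 0.93 in rescue against knockout, and its 0.30 in rescue against control did not pass (adjusted p = 0.175). Signal summed over all genes was between 597160 and 681928 per library. A signal of 1 stood for about 46.1 to 51.1 reads over 2000 nt, judged from the spacing of low values. The lowest sum was that of knockout replicate 2, in which the 4 most abundant genes held 32.7% of the signal, against 36.7% to 37.7% in the other libraries. Control replicate 2 was the lowest by median, its genes deviating by -0.10 on the log2 scale, against 0.0024 to 0.040 in the other libraries. Of the 12 myeloid markers looked up, 10 had values, among them CD33, SPI1, CSF1R, CD68 and LYZ, while no signal was listed for MPO or CD14. Of other cells, 1 of 4 T cell markers, 3 of 4 B cell markers, 0 of 5 erythroid and megakaryocytic markers and 2 of 7 epithelial and fibroblast markers had values, with a summed signal of at most 4.52 per kind and library.

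Knockout cells were set against control cells to ask what differs once the guide against METTL16 is present. Of the 10 genes, 7 were higher in knockout cells (FOS, FOSB, JUN, JUNB, JUND, IER3 and DUSP1), none was lower, and EGR1, IER2 and ATF3 did not pass the test (limma on log2(signal + 1), two-sided, adjusted p under 0.05 over 12734 genes). By the same rule 39.7% of all genes tested were called, 26.2% higher and 13.5% lower. IER3 entered the test through both knockout libraries and rescue replicate 1, the only libraries in which its signal reached 1. Both knockout libraries lay above both control libraries in 7 of the 10 and below them in 1, against 43.4% and 25.1% of all genes. The median log2 change of the 10 was 0.40, with a range of -0.16 to 0.71, and the median of all genes tested was 0.07. The comparison of rescue with knockout asked what differs when METTL16 is overexpressed in cells with the guide. There, 4 of the 10 were lower in rescue cells (FOS, FOSB, JUN and JUNB) and none was higher, against 15.9% lower and 15.6% higher of all genes tested, 31.4% in all. Both rescue libraries lay below both knockout libraries in 7 of the 10 and above them in 3, against 38.1% and 34.7% of all genes. Their median log2 change was -0.23, and that of all genes tested was -0.01. Between rescue and control none of the 10 passed, against 0.283% of all genes tested (0.228% higher, 0.055% lower), and 2 of them, FOS and JUNB, had an unadjusted p under 0.05. Both rescue libraries lay above both control libraries in 6 of the 10 and below them in 0, against 34.6% and 5.33% of all genes, with a median of 0.12 for the 10 and 0.06 for all genes tested. The split of all genes moved with the scaling: 3333 were higher and 1723 lower in knockout, against 3125 and 3212 after a median shift, and 1982 were higher and 2022 lower in rescue against knockout, against 1933 and 3946 on a common sum without the 4 most abundant genes. In rescue against control 29 genes were higher and 7 lower, and this count moved most: it was 299 and 83 with a replicate block, 217 and 71 with the fit on the 2 groups alone, 194 and 31 at a mean signal of at least 5, and 213 and 68 without knockout replicate 1, with none of the 10 passing in any of them. The 3 comparisons share libraries and are not independent of each other. In bulk RNA, fewer cells that carry a transcript and less of it per cell cannot be told apart.

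Levels per transcript length spanned a wide range. In control cells JUND was the highest at a mean signal of 31.1, followed by IER2 at 23.2, JUNB at 19.0, JUN at 17.2 and FOS at 4.40. DUSP1 at 2.09, ATF3 at 2.03 and EGR1 at 1.86 came next and overlapped between libraries, and FOSB at 1.04 and IER3 at 0.844 were the lowest. In knockout cells JUNB at 27.4 stood above IER2 at 24.0 and JUN at 23.9, which overlapped. FOS stood higher than 50.6% of the genes of the table in knockout and than 39.8% in control.

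**Figure D1:**
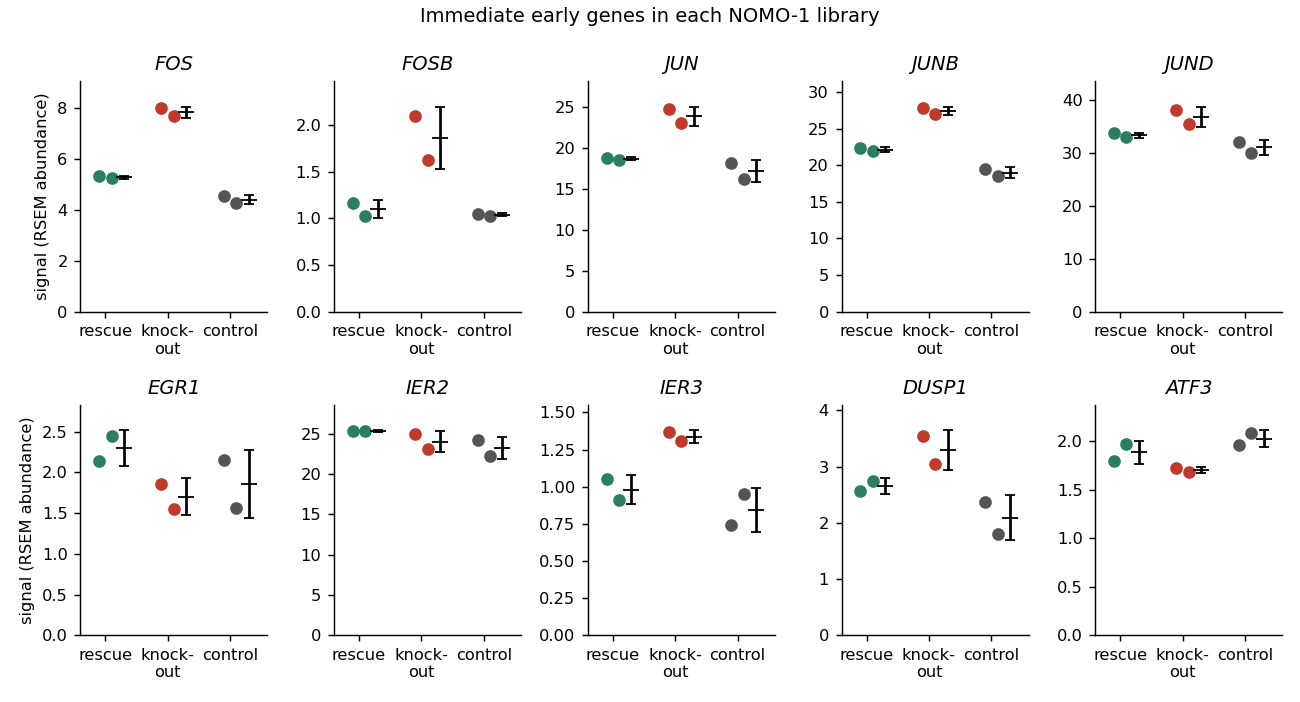
Signal (RSEM abundance, linear axis from 0) of each immediate early gene in rescue, knockout and control libraries. Points are the 2 libraries of a group, and the dash and bar beside them are the mean and SD. FOS, JUN and JUNB are highest in both knockout libraries, while IER2 lies between 22.3 and 25.4 in every library.

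FOS and FOSB encode the FOS-type partners of AP-1, which bind DNA mainly when paired with a JUN protein. FOS (ENSG00000170345, chromosome 14, 75278774 to 75282230, plus strand, GRCh38, 4 exons) had the largest change of the 10 in knockout on the log2(signal + 1) scale, while as a plain ratio of means FOSB was slightly higher. Its signal was 5.31 and 5.24 in rescue, 7.98 and 7.67 in knockout, and 4.52 and 4.28 in control libraries. Both knockout libraries stood above all others, and the rescue libraries stood above both control libraries. The mean was 7.82 ± 0.218 in knockout and 4.40 ± 0.171 in control (SD, n = 2 each), 1.78 times the control level. The log2 change was 0.71 (SE 0.090, adjusted p = 4.29e-05) in knockout against control and -0.49 (adjusted p = 0.00113) in rescue against knockout. FOS kept both calls in all 15 alternative settings. Its rescue mean was 1.20 times the control mean (log2 0.22, 95% interval 0.024 to 0.41, adjusted p = 0.386), which did not pass. These values rest on about 236 to 401 reads per library.

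FOSB (ENSG00000125740, chromosome 19, 45467995 to 45475179, plus strand, 4 exons in its longest coding transcript) is the closest relative of FOS in the list and was far scarcer. Its signal was 1.17 and 1.03 in rescue, 2.10 and 1.63 in knockout, and 1.05 and 1.03 in control libraries. The knockout libraries were again the highest, and the rescue and control libraries overlapped. The 2 knockout libraries differed from each other by more than those of the other groups did. Its knockout mean was 1.79 times the control mean. FOSB rose by 0.48 (SE 0.12, adjusted p = 0.00452) in knockout and fell by 0.44 (adjusted p = 0.00967) in rescue against knockout. Without knockout replicate 1 neither call was kept, with 0.36 (adjusted p = 0.0732) and -0.33 (adjusted p = 0.140). FOSB lies within the span of ERCC1, a DNA repair gene on the opposite strand, whose signal was 26.8 and 25.2 in rescue, 22.5 and 21.4 in knockout, and 26.4 and 24.9 in control libraries, lowest where FOSB was highest. The part of ERCC1 in the FOSB values was not tested.

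The 250 bases upstream of FOS and FOSB are shown because both genes passed in both comparisons and both carry the core of a cAMP response element and a TATA box at nearly the same distance from the start. The sequences are RefSeq's on GRCh38.p14, plus strand, chr14:75278578-75278827 for FOS and chr19:45467746-45467995 for FOSB. Capitals mark TGACGT, the core bound by CREB and ATF proteins, and TATAAA.
FOS: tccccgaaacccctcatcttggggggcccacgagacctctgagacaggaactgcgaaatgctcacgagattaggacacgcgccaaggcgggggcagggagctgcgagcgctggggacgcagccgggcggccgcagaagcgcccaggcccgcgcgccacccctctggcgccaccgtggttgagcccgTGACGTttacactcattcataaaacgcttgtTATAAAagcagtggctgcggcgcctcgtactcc
FOSB: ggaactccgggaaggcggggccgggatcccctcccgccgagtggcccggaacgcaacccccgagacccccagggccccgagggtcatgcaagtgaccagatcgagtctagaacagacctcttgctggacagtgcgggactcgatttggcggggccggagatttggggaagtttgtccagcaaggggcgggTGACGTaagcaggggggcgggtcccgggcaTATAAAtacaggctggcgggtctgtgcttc
In FOS the core spans bases -64 to -59 from the RefSeq start and the TATA box bases -33 to -28. In FOSB they span -60 to -55 and -30 to -25. Of 35116 upstream windows of 250 bases in the RefSeq set, 7.1% hold TGACGT on either strand and 10.7% hold TATAAA on either strand. Of the 9 immediate early genes with an entry, 5 hold TGACGT (FOS, FOSB, EGR1, DUSP1 and JUND) and 5 hold TATAAA (FOS, FOSB, DUSP1, JUNB and ATF3). These are counts of genes, set beside shares of windows, and ATF3 has a window at an upstream and at a downstream start. The TATAAA of ATF3 lies at bases -230 to -225 of the downstream start, far from where the other 4 genes hold it. JUN and JUNB, which also passed in both comparisons, hold no TGACGT, while EGR1, which holds it, passed in neither. Whether these motifs go with the changes was not tested.

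JUN, JUNB and JUND encode the JUN-type partners of AP-1, of which JUN is the strong activator, JUNB is often a weaker or antagonistic partner, and JUND is present in most resting cells. Their summed signal was 75.0 and 73.6 in rescue, 90.8 and 85.6 in knockout, and 69.8 and 64.8 in control libraries. All 3 rose in knockout, with the smallest change in JUND. JUN (ENSG00000177606, chromosome 1, 58780788 to 58784327, minus strand, 1 exon) had a signal of 18.9 and 18.6 in rescue, 24.8 and 23.1 in knockout, and 18.2 and 16.3 in control libraries. The mean was 23.9 ± 1.18 in knockout and 17.2 ± 1.34 in control (SD, n = 2 each). JUN rose by 0.45 (SE 0.075, adjusted p = 0.000347) in knockout and fell by 0.34 (adjusted p = 0.00410) in rescue against knockout, and kept both calls in all 15 alternative settings.

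JUNB (ENSG00000171223, chromosome 19, 12791496 to 12793315, plus strand, 1 exon) had a signal of 22.4 and 21.9 in rescue, 27.8 and 27.0 in knockout, and 19.5 and 18.5 in control libraries. The 3 groups did not overlap, and the rescue libraries lay between knockout and control. JUNB rose by 0.51 (SE 0.067, adjusted p = 6.04e-05) in knockout and fell by 0.30 (adjusted p = 0.00443) in rescue against knockout. The fall was lost without knockout replicate 1 (adjusted p = 0.0501) and without rescue replicate 2 (adjusted p = 0.0611). Its difference between rescue and control was 0.21 (95% interval 0.067 to 0.36, adjusted p = 0.243). JUNB lies within the span of HOOK2, a gene of microtubule transport on the opposite strand, whose signal was 4.96 and 4.21 in rescue, 5.20 and 4.96 in knockout, and 3.98 and 3.78 in control libraries. HOOK2 also rose in knockout, by 0.32 (adjusted p = 0.0222), in the same direction as JUNB. Its -0.13 in rescue against knockout did not pass (adjusted p = 0.366). The libraries were made with a stranded kit, but the strand setting of the counting is not given in the sources used here, and the part of HOOK2 in the JUNB values was not tested.

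JUND (ENSG00000130522, chromosome 19, 18279760 to 18281622, minus strand, 1 exon) was the most abundant of the 10 in every group. Its signal was 33.8 and 33.1 in rescue, 38.2 and 35.5 in knockout, and 32.1 and 30.1 in control libraries. The knockout libraries were the highest of the 6, by a small margin. JUND rose by 0.24 (SE 0.066, adjusted p = 0.0107) in knockout, a call lost without knockout replicate 1 (0.19, adjusted p = 0.153). Its -0.14 in rescue against knockout did not pass (95% interval -0.28 to 0.0042, adjusted p = 0.130). After quantile normalization (adjusted p = 0.0227), after a median shift (0.0386) and on a common sum without the 4 most abundant genes (0.00516) it did. The share of JUND in the summed JUN family signal was 45.0% and 45.0% in rescue, 42.1% and 41.5% in knockout, and 46.0% and 46.4% in control libraries. Both knockout libraries held a smaller share of JUND than any other library, which is given as a description with no test.

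**Figure D2:**
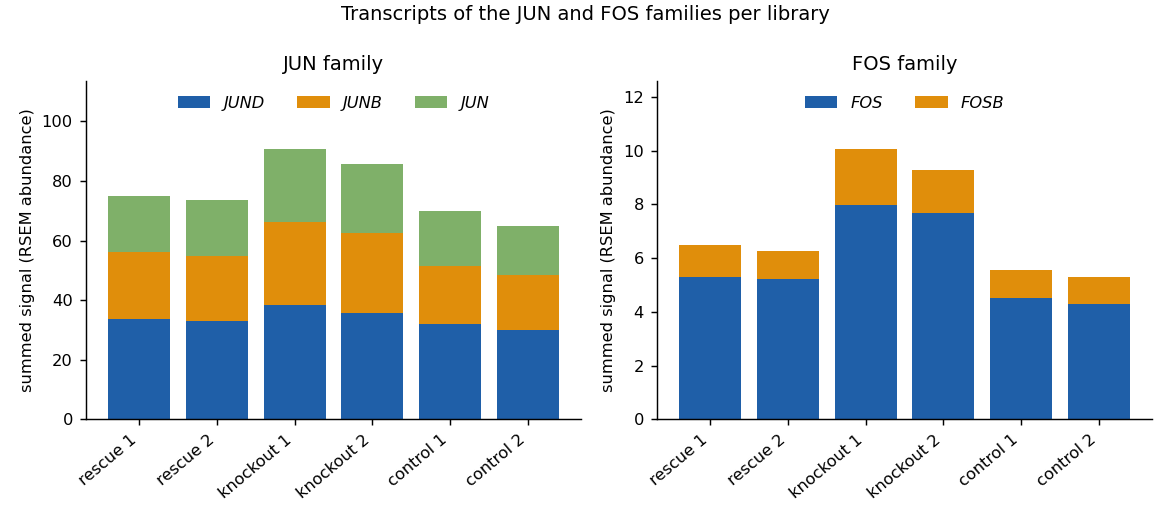
Stacked bars of the summed signal (RSEM abundance, linear axis from 0) of JUND, JUNB and JUN, and of FOS and FOSB, in each library. Both family sums are highest in the 2 knockout libraries, and JUND makes up 41.5% to 46.4% of the JUN family signal.

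JUN is known to be bound by its own product at a variant AP-1 site near its start, and 30 bases around a match to that site are shown for this reason. They lie inside the longer GENCODE transcript, on the minus strand at chr1:58784096-58784125 (RefSeq, GRCh38.p14), bases -78 to -49 from the RefSeq start, with TGACATCA in capitals.
JUN: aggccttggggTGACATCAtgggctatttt
ATF3 has an upstream and a downstream RefSeq start, each with its own window. The same 8 letters occur in the window of the upstream start at bases -123 to -116, and not in that of the downstream start. On either strand they occur in 2.37% of all RefSeq windows. The standard AP-1 site TGACTCA was found on neither strand in any of the windows of the 9 genes with an entry, against 4.2% of all windows. The full cAMP response element TGACGTCA, a palindrome that contains the core on both strands, was found in JUND and DUSP1, against 1.65% of all windows. The EGR site GCGTGGGCG was found in none of the windows of these genes either, against 0.72% of all. The window of JUNB held TATAAA and no other motif searched, and that of IER2 held none. These are matches of letters, not measured binding.

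DUSP1 and IER3 act on the signalling that switches these genes on. DUSP1 encodes a nuclear phosphatase that inactivates the MAP kinases p38, JNK and ERK and so limits the response that induced it. DUSP1 (ENSG00000120129, chromosome 5, 172768090 to 172771195, minus strand, 4 exons) had a signal of 2.56 and 2.75 in rescue, 3.54 and 3.05 in knockout, and 2.37 and 1.81 in control libraries. The 3 groups did not overlap. DUSP1 rose by 0.48 (SE 0.12, adjusted p = 0.00507) in knockout, 1.58 times the control level. When control replicate 2 was left out this did not pass (0.35, adjusted p = 0.0513). In rescue it was at -0.23 against knockout (adjusted p = 0.149) and at 0.25 against control (adjusted p = 0.435), and passed neither test. On a common sum without the 4 most abundant genes the first of these passed (adjusted p = 0.0463). The 250 bases upstream of DUSP1 are shown for their full cAMP response element and a second core, in capitals with TATAAA (RefSeq, GRCh38.p14, minus strand, chr5:172771196-172771445).
DUSP1: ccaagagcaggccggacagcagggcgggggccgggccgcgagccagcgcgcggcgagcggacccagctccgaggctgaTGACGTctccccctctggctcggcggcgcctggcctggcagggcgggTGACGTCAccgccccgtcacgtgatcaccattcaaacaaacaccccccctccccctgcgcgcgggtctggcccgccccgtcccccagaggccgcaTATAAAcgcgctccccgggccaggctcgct
The full element spans bases -125 to -118 from the start, and the separate core bases -172 to -167.

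IER3 encodes a small stress-inducible protein that modulates survival and ERK signalling. IER3 (ENSG00000137331, chromosome 6, 30743199 to 30744554, minus strand, 1 exon) was the scarcest of the 10, at 1.05 and 0.910 in rescue, 1.37 and 1.30 in knockout, and 0.739 and 0.948 in control libraries. The knockout libraries were the highest, and rescue and control libraries overlapped. IER3 entered the test through both knockout libraries and rescue replicate 1, the 3 libraries with a signal of at least 1. About 24.4 to 42.4 reads stood behind each value, so counting error alone reached 20.3%. IER3 rose by 0.34 (SE 0.11, adjusted p = 0.0257) in knockout. The call was lost after quantile normalization (adjusted p = 0.145), after a median shift (0.0939), without control replicate 1 (0.113), without knockout replicate 1 (0.119) and without knockout replicate 2 (0.0745). Its -0.24 in rescue against knockout did not pass (adjusted p = 0.121). On the opposite strand non-coding genes overlap IER2, IER3 and DUSP1 in GENCODE release 29, and they were not analysed here.

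EGR1, IER2 and ATF3 are the members of the list that did not pass in knockout. EGR1 encodes a zinc finger factor of growth and monocyte differentiation. EGR1 (ENSG00000120738, chromosome 5, 138465490 to 138469315, plus strand, 2 exons) had a signal of 2.14 and 2.45 in rescue, 1.86 and 1.55 in knockout, and 2.16 and 1.57 in control libraries. Knockout and control libraries overlapped, while both rescue libraries lay above both knockout libraries. Its change in knockout was -0.08 (95% interval -0.34 to 0.19, adjusted p = 0.654). In rescue against knockout it was 0.29 (95% interval 0.022 to 0.55, adjusted p = 0.0919), a difference that passed after quantile normalization (adjusted p = 0.0340) and after a median shift (0.0464). The 250 bases upstream of EGR1 are shown because they hold 2 CArG boxes, the sites bound by serum response factor. At least 1 such box was found in 1.16% of all windows and in none of the other windows of these genes (RefSeq, GRCh38.p14, plus strand, chr5:138465229-138465478). Bases further upstream were not searched, so CArG boxes of the other genes outside these 250 bases would be missed. Capitals mark the CArG boxes and, read on the other strand, 2 core sites.
EGR1: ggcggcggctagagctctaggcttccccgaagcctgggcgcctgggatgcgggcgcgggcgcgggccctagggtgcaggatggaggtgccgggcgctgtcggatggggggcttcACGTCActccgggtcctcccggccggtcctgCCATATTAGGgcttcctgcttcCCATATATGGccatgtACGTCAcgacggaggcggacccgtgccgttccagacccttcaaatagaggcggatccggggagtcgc
The CArG boxes span bases -105 to -96 and -83 to -74, between the core sites at -136 to -131 and -67 to -62.

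**Figure D3:**
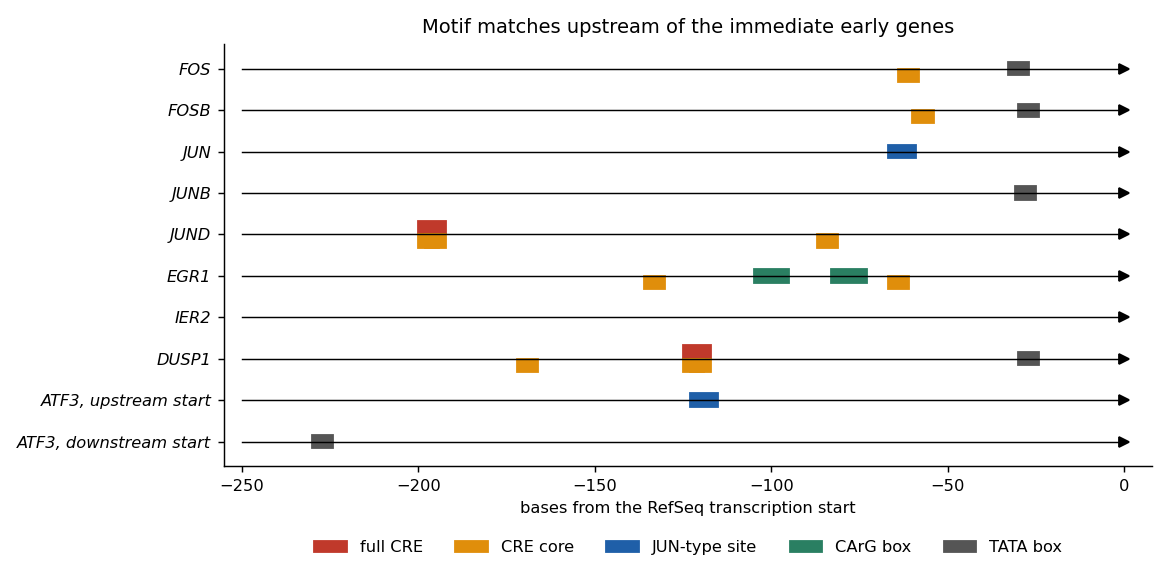
Matches of 5 motifs in the 250 bases upstream of each RefSeq start, drawn to scale in bases from the start. CRE is the cAMP response element. FOS, FOSB, DUSP1 and JUNB have a TATA box within 33 bases of the start. Within these windows CArG boxes were found in EGR1 only, and bases further upstream were not searched.

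IER2 encodes a nuclear protein of the early serum response. IER2 (ENSG00000160888, chromosome 19, 13150415 to 13154908, plus strand) had a signal of 25.3 and 25.4 in rescue, 24.9 and 23.1 in knockout, and 24.2 and 22.3 in control libraries. The rescue libraries were the highest, and knockout and control libraries overlapped. IER2 rests on about 1576 to 1805 reads per library if taken over the longest of its 3 coding transcripts, and on fewer over a shorter one. The 95% interval of its log2 change in knockout was -0.11 to 0.20 (adjusted p = 0.648). The direction turned under 4 alternative settings. ATF3 encodes a stress-induced repressor of the ATF family that also pairs with JUN proteins. ATF3 (ENSG00000162772, chromosome 1, 212565334 to 212620777, plus strand) was at 1.80 and 1.97 in rescue, 1.73 and 1.68 in knockout, and 1.97 and 2.09 in control libraries. Both knockout libraries lay below all others, opposite to FOS and JUN. The change in knockout was -0.16 (95% interval -0.38 to 0.061, adjusted p = 0.235), and it passed after quantile normalization (-0.27, adjusted p = 0.0344).

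**Figure D4:**
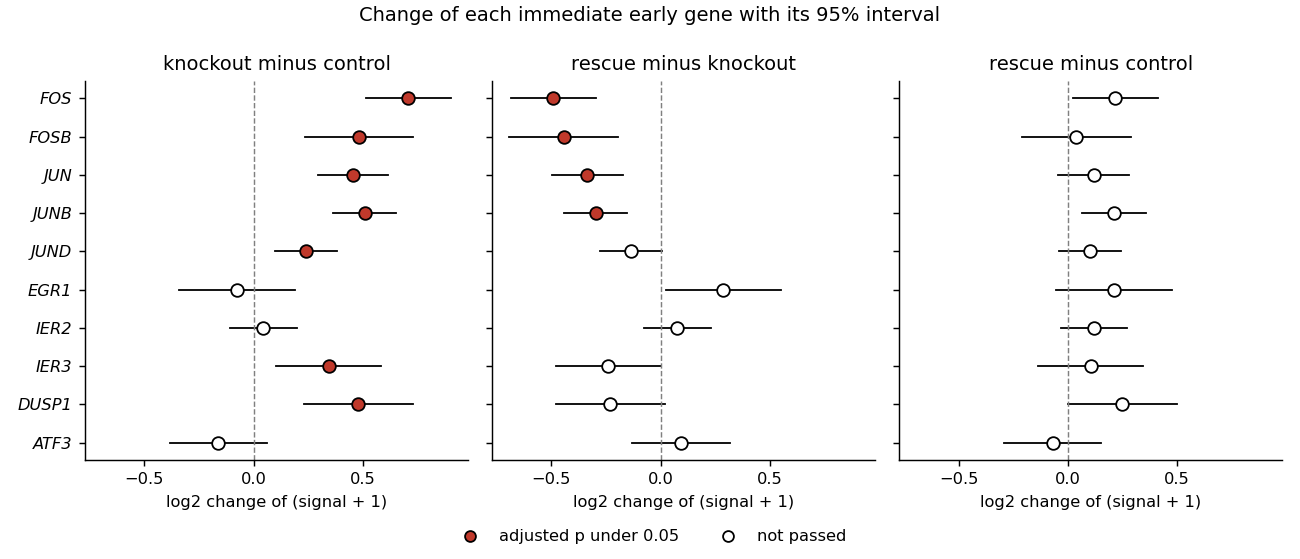
Log2 change of each immediate early gene on the log2(signal + 1) scale in the 3 comparisons, with its 95% interval from limma. Filled points have an adjusted p under 0.05, which are 7 genes in knockout minus control, 4 in rescue minus knockout and 0 in rescue minus control.

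The related lists are read against all genes tested, of which 26.2% rose and 13.5% fell in knockout, with a median of 0.07, and 15.6% rose and 15.9% fell in rescue against knockout, with a median of -0.01. Other genes of the AP-1 and basic leucine zipper families did not move as one. Of 15 tested, 3 rose and 5 fell in knockout, with a median log2 change of -0.08. FOSL1, a FOS-type partner, had a signal of 3.30 and 3.24 in rescue, 1.78 and 1.78 in knockout, and 3.11 and 2.68 in control libraries. FOSL1 ran opposite to FOS and FOSB: its log2 change was -0.48 (adjusted p = 0.00228) for knockout and 0.62 (adjusted p = 0.000602) for rescue against knockout. MAFF, a small MAF protein, BATF3, a partner of JUN proteins, and CREM, a cAMP-responsive modulator, fell by 0.53, 0.41 and 0.42. JDP2, a repressor that pairs with JUN, fell by 0.21, and BATF (0.21), ATF7 (0.25) and NFE2L2 (0.16), the factor of the oxidative stress response, rose. These last 4 were named after their values were seen. In rescue against knockout 5 of the 15 rose and 1 fell. The EGR family and its corepressors had 2 genes tested, NAB1 (-0.20, adjusted p = 0.0717) and NAB2 (0.14, adjusted p = 0.282), and neither passed in knockout.

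Of 33 other immediate early genes tested, 17 rose and 4 fell in knockout, with a median of 0.20. KLF4, a Kruppel-like factor of monocyte maturation, had a signal of 3.48 and 3.26 in rescue, 6.76 and 6.63 in knockout, and 2.78 and 2.32 in control libraries (log2 1.12, adjusted p = 2.47e-06). ID2, an inhibitor of helix-loop-helix factors, rose by 0.88 and BTG2, an antiproliferative gene, by 0.80. MYC, the growth factor-induced regulator of cell growth, was at 106 and 110 in rescue, 64.3 and 65.3 in knockout, and 95.7 and 87.1 in control libraries, and fell by 0.49. KLF10, PIM1 and PIM3, named after their values were seen, were the other 3 that fell. In rescue against knockout 11 fell, among them KLF4 (-0.82), ID2 (-0.67) and BTG2 (-0.59), and 5 rose, among them MYC (0.73).

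The kinases listed carry growth factor and stress signals to these genes. Of 23 tested, 7 rose and 1 fell in knockout, with a median of 0.13, a share of risen genes near the 26.2% of all genes. RPS6KA1, a ribosomal S6 kinase downstream of ERK, rose by 0.42, MAP2K3 by 0.28, MAP2K6 by 0.55 and MAPK11, a p38 kinase, by 0.46. The 1 that fell was MAP2K1, which encodes MEK1 (-0.22), named after the count was seen. Among 10 other MAP kinase phosphatases, DUSP10 (0.30) and DUSP5 (0.35) rose, DUSP4 fell by 0.29, and DUSP7 did not pass (0.20, adjusted p = 0.0503). Their median was 0.02, and neither count stands above the shares of all genes. Of 14 transcription factors and coactivators that act on immediate early promoters, 7 rose and none fell, with a median of 0.18. MKL1, the actin-controlled coactivator of serum response factor also called MRTFA, had a signal of 9.83 and 9.68 in rescue, 15.1 and 15.0 in knockout, and 9.68 and 8.82 in control libraries. It rose by 0.65 in knockout (adjusted p = 3.49e-05) and fell by 0.58 in rescue against knockout. The acetyltransferases EP300 and CREBBP rose by 0.29 each and CRTC2, a coactivator of CREB, by 0.33.

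Cytoskeletal targets of serum response factor and MRTF, another known class of that factor's target genes, had 13 of 17 tested genes risen in knockout and none fallen, with a median of 0.49. ZYX, which encodes the focal adhesion protein zyxin, had a signal of 44.7 and 44.6 in rescue, 67.7 and 62.8 in knockout, and 40.7 and 37.1 in control libraries (log2 0.73, adjusted p = 1.99e-06). CNN2, a calponin, rose by 0.66, TPM4, a tropomyosin, by 0.62 and TGFB1I1, an adhesion scaffold, by 1.04. Of these 17, 12 fell and none rose in rescue against knockout. Among 10 proteins that bind AU-rich elements, the decay signals found in many immediate early messages, 2 rose and 2 fell in knockout, a share called near the 39.7% of all genes, with a median of -0.10. Of the same 10, 4 rose and 1 fell in rescue against knockout. ZFP36, which encodes tristetraprolin and is itself an immediate early gene, rose by 0.58 and ZFP36L2 by 0.30, while ZFP36L1 fell by 0.82 and TIA1 by 0.25.

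**Figure D5:**
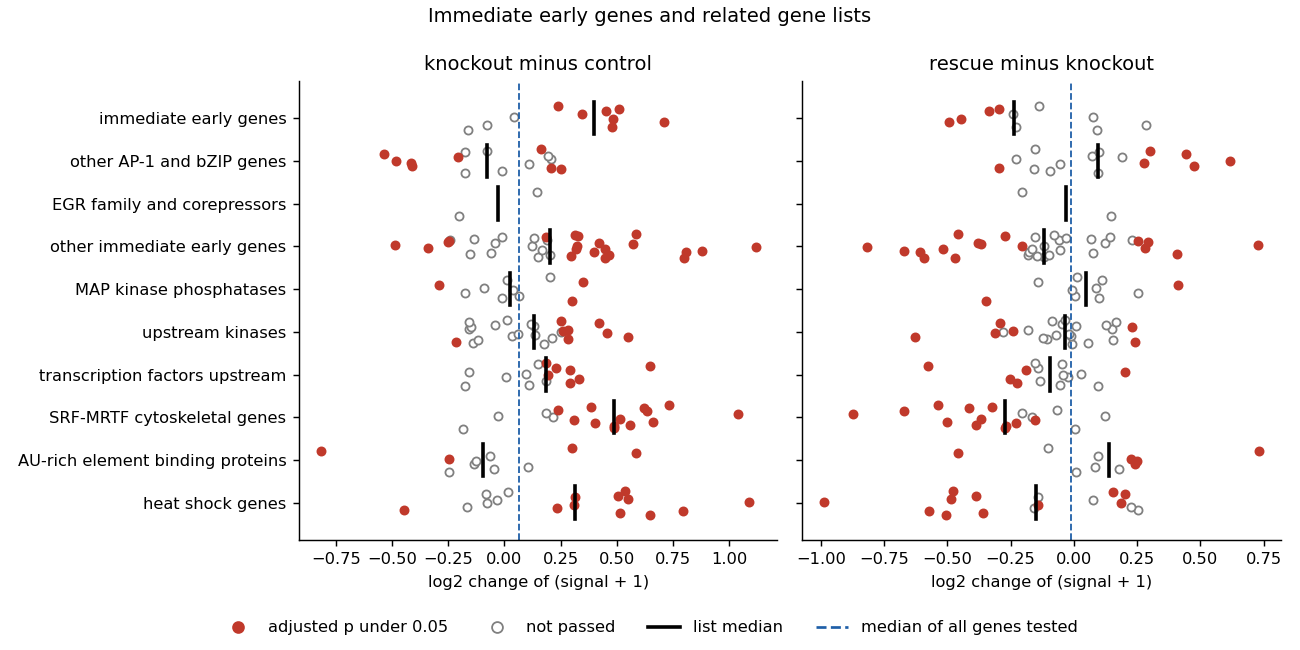
Log2 change on the log2(signal + 1) scale of every tested gene in the immediate early list and 9 related lists, for knockout minus control and rescue minus knockout. Each point is a gene, filled where its adjusted p is under 0.05. Black bars are list medians, which run from -0.10 to 0.49 in knockout minus control, and the dashed line is the median of all genes tested, 0.07 and -0.01.

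Other genes known to respond to stress or to mark myeloid cells moved in the same libraries. Of all genes tested, 26.2% rose and 13.5% fell in knockout, and 15.6% rose and 15.9% fell in rescue against knockout. Of 16 heat shock genes tested, 10 rose and 1, DNAJB4, fell in knockout (named after its value was seen), with a median of 0.31. HSPA1A, an inducible HSP70 with a near-identical copy that could share its reads, rose by 1.09, its co-chaperone DNAJB1 by 0.80, DNAJA1 by 0.52 and HSPH1 by 0.54. In rescue against knockout 3 of the 16 rose and 8 fell. Of 10 myeloid markers tested, 8 rose and none fell in knockout, and their summed signal was 421 and 429 in rescue, 530 and 525 in knockout, and 374 and 347 in control libraries. LYZ (1.42), CSF1R (1.02), CD68 (0.97) and PTPRC (0.60) rose. LYZ, which encodes lysozyme, was the 1 marker that also rose in rescue against control (0.84, adjusted p = 7.45e-06). In rescue against knockout 1 of the 10 markers rose and 7 fell. The T cell marker CD2 was higher as well, at 3.02 and 2.86 in knockout against 0.740 and 0.636 in control and 0.794 and 0.640 in rescue libraries. It reached a signal of 1 in the knockout libraries only and entered the test through them, so its call is not independent of that filter. No signal was listed for CD3D, CD3E or CD8A. The part of these genes in the values of the immediate early genes was not tested.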

How the data were processed

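RNA of 6 NOMO-1 libraries, 2 per group, was sequenced. Per the submitters' processing notes, STAR, RSEM and GRCh38 were used, with versions not given in the sources used here. The deposited table holds the authors' signal, an RSEM abundance scaled for length whose kind is not stated, with no raw counts. Groups were taken from the labels. All 6 libraries entered 1 fit of log2(signal + 1) with a term per group in limma 3.58.1 (R 4.3.3, trended prior), over the 12734 genes that reached a signal of 1 in 2 or more libraries. Tests were two-sided, with Benjamini-Hochberg adjustment over those genes and a threshold of 0.05. Differences are on the log2(signal + 1) scale, which understates the change of low genes. The test was also run on simulated data with known changes in a small part of the genes. Those data held no shift between libraries, so that run does not bear on the scaling. Plots were drawn with matplotlib 3.10.9, and tables were made in pandas 2.3.3 and numpy 2.4.6 under Python 3.11.15.

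The depth is not given. It was estimated from genes of at most 400 nt, whose signal times length less 50 nt falls on multiples of 1 step per library, with 75.6% to 86.5% of the low values within 0.15 of a whole number. Read numbers per gene follow from the longest coding transcript and are approximate, and are too high where a shorter transcript prevails. Percentages of counting error cover counting error only.

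Gene coordinates are GENCODE release 29 on GRCh38. Upstream windows of 250 bases are RefSeq's, and 9 of the 10 genes had an entry, all but IER3. Motifs were searched as fixed patterns on both strands of these windows, and not outside them.

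All 10 genes are named. From each related list the text names up to 4 genes with the smallest p in knockout against control, and the 2 with the smallest p in rescue against knockout, which were already among them. CD33 and SPI1 are named as defining myeloid markers. Any other gene is said to be named after its value was seen. SRF, CREB1, ATF1 and ZFP36 stand in 2 lists each. The genes and lists were chosen with earlier results of these data known. Alternatives were another pseudocount, other filters, quantile normalization, a median shift, a common sum, no trend, separate fits, a replicate block and each library left out.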

Additional observations from a re-analysis of the deposited data

How the results depend on the processing

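Of the 10 immediate early genes, 7 passed in knockout against control, and 4 of the 5 that could be tested passed with a mean signal of at least 5. After quantile normalization 6 were higher and 1, ATF3, was lower, and after a median shift 6 were higher. With 1 library left out in turn, between 4 and 7 passed, with 4 without knockout replicate 1, where the calls over all genes were also fewer, with 2065 higher and 1298 lower, against 3333 and 1723. In rescue against knockout 4 passed, and 2 to 4 did so with 1 library left out, the lowest without knockout replicate 1. In rescue against knockout 6 passed after quantile normalization and 6 after a median shift, each with 1 higher, EGR1, and 5 lower. On a common sum without the 4 most abundant genes 6 passed in that comparison, all lower in rescue. None passed in rescue against control in any of the 15 alternatives. In the 9 related lists, 73 of 136 genes tested passed in knockout against control (59 risen, 14 fallen), and 46 to 82 with 1 library left out. Of all genes tested, 39.7% passed in knockout against control. After quantile normalization 61 of the list genes rose and 36 fell, and after a median shift 57 rose and 36 fell. The calls over all genes also moved, to 3146 higher and 3187 lower after quantile normalization and 3125 and 3212 after a median shift. In rescue against knockout 62 passed (21 risen, 41 fallen), and 39 to 73 with 1 library left out, with 23 risen and 62 fallen on a common sum. Of all genes tested, 31.4% passed in rescue against knockout, and on a common sum 1933 were higher and 3946 lower. The direction turned for 3 of the 10 immediate early genes, in comparisons where they passed nowhere. EGR1 in knockout against control lay between -0.23 and 0.073 with 1 library left out, with 0.0080 without knockout replicate 2. IER2 in knockout against control was -0.017 after quantile normalization and -0.023 after a median shift, and lay between -0.012 and 0.10 with 1 library left out, with -0.0082 without knockout replicate 1. FOSB in rescue against control was -0.0078 after quantile normalization and -0.019 after a median shift, and lay between -0.0087 and 0.088 with 1 library left out. The cause was not tested.

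Same-numbered libraries did not deviate together, with correlations of -0.011 for control and knockout, -0.048 for control and rescue, and 0.10 for knockout and rescue, so the numbers were not taken as pairs. With the replicate block, 7 of the 10 genes passed in knockout against control, 4 in rescue against knockout and 0 in rescue against control, and in the related lists 75 and 65. Of all genes, 3600 were higher and 1875 lower in knockout with the block. Depth limits IER3 most, then ATF3, DUSP1 and FOSB, whose counting error reached 11.3%, 10.4% and 10.3%.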

Other observations

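The genes whose levels followed the immediate early genes most closely over the 6 libraries were sought among 2832 genes with a range of at least 0.5 on the log2(signal + 1) scale, by the root-mean-square distance between centred profiles. Nearest to the median profile of the 10 were PSME1, a proteasome activator subunit, at 0.029, TROAP and PKIG at 0.031, and SLC39A1, a zinc transporter, and CNP at 0.032. Nearest to FOS were ITGA5, the integrin chain of the fibronectin receptor, at 0.011, C9orf131 at 0.020 and IL6R, the interleukin 6 receptor, at 0.023. JUN lay nearest to MYO9B at 0.0041, SSR4 at 0.011 and GRN at 0.013, and JUNB nearest to TNFRSF1A, a receptor of tumour necrosis factor, at 0.015, MLC1 at 0.016 and HSPA5 at 0.019. FOSB lay nearest to ISG15, an interferon-induced gene, at 0.021. DUSP1 lay nearest to NSDHL at 0.031, IER3 to ANKRD35 at 0.042 and JUND to SLC39A1 at 0.056. The genes nearest to the median profile had ranges of 0.503 to 0.533, and those nearest to JUND 0.504 to 0.516. These lie close to the limit of 0.5, and genes of smaller range, which may lie nearer, were not candidates. With 3 groups of 2 libraries many genes share such a profile, and the distances are descriptions with no test.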
